A study of Mus musculus and Homo sapiens with 15 samples.

Results

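A set of 3056 cytidines in mouse brain RNA was read as edited again and again in libraries that had received the editing enzyme, with or without antibody, and never in libraries that had received buffer. They were chosen by their listing in the deposited site lists. A cytidine was taken, with its chromosome, position and strand, when at least 5 of the 6 libraries with enzyme and 0 of the 3 buffer-only libraries listed it, and when its edit fraction (edited reads over covering reads) was below 0.8 in each library that listed it. Such cytidines are called recurrent enzyme sites here, after the libraries that listed them. Whether the enzyme edited each one was not tested. These recurrent enzyme sites make up 0.0977% of the 3129103 positions listed in any of the 9 brain libraries. Of them, 693 were listed in all 6 libraries with enzyme. Another 2363 were listed in 5, of which 1010 were missing from an RBFOX2-INSCRIBE library and 1353 from an enzyme-only library.

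INSCRIBE marks the RNAs bound by a protein in fixed cells or tissue. A primary antibody recognises the protein, and a purified fusion of the cytidine deaminase APOBEC1 with a nanobody recognises the antibody and converts nearby cytidines to uridines, which are sequenced as T. The 3 RBFOX2-INSCRIBE libraries had rabbit antibody to RBFOX2 and the fusion enzyme, the 3 enzyme-only libraries had the enzyme without antibody, and the 3 buffer-only libraries had neither. All 9 came from coronal brain sections of 2-month-old female C57BL/6J wildtype mice and are labelled as fixed with PFA (paraformaldehyde). Each replicate was a single section, and the study used 2 mice, so sections share animals and p-values measure only the spread between sections.

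APOBEC1 is known for editing the mRNA of apolipoprotein B, and it prefers cytidines that follow an A or a U in AU-rich RNA. RBFOX2 and its relatives RBFOX1 and RBFOX3 are splicing regulators that bind the sequence UGCAUG and are abundant in neurons. Editing by the enzyme alone is the background from which antibody-directed editing is read in this assay.

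The sites with the highest edit fractions show what these cytidines look like. For 11 of the 12 with the highest fraction among those listed in all 6 libraries and covered by at least 100 reads (at most 1 per gene), the RNA around the edited C is printed below 5′ to 3′ in GRCm38 (mm10) coordinates, with the C and the base on either side in capitals.
Yod1, chr1:130722964-130722992, + strand: gcucauuugcagcACUuuaaaaauuagag
Msi2, chr11:88344337-88344365, - strand: guagugauuuuugACUuagucugguaguc
Xpr1, chr1:155276882-155276910, - strand: agaagaggcacugACGggcguggccccug
Arhgap21, chr2:20848007-20848035, - strand: agaaaaauauaauUCUgcaugaggacuuu
2900097C17Rik, chr2:156391044-156391072, - strand: uaguaaauuuagcACAuaguguacaccgu
Ppp3cb, chr14:20500338-20500366, - strand: cauaaaagucaagACUgcaugucgaaauu
1700020I14Rik, chr2:119605084-119605112, + strand: aacggaguaccugACUgcaucuccgagga
Sgtb, chr13:104141137-104141165, + strand: ccccuucccuaguACUgcaugcaaaggga
Luzp2, chr7:55267503-55267531, + strand: ugucuuggcuuugACUuccuguucuagaa
Pja2, chr17:64281962-64281990, - strand: cugcuuguuuucuACUcugugaucuuucc
Bnip3, chr7:138891745-138891773, - strand: ugagacagaauagACUcuugucaugaccu
The edited C followed an A in 10 of the 11 and a U in 1. In 8 of the 11 the triplet was ACU. The window held UGCAUG in 3, those of Arhgap21, Ppp3cb and Sgtb, where the motif began with the base directly after the C. Of the printed windows, 9 lie in 3′ untranslated regions (3′ UTRs), and those of 2900097C17Rik and 1700020I14Rik lie in exons of non-coding RNAs.

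The name of a hotspot does not describe most of these sites, because their edit fractions were low. Summed over the libraries that listed a site, the median number of edited reads was 8 and the median cover 4378 reads. The median edit fraction, taken over the fractions of the single sites, was 0.211%, and its 5th and 95th percentiles were 0.0597% and 0.978%. An edit fraction of at least 0.5% was reached by 528 sites, at least 1% by 143, at least 5% by 10 and at least 10% by 4. Of the 15973 listings of these sites, 54.9% rested on 1 edited read, and 361 sites passed the study's score filter of 0.5 in at least 1 library, 27 of them in 5 or more. The rule takes high fractions where cover is thin and low fractions where cover is deep, since each listing needs an edited read. The plot of edit fraction against cover shows this as a sharp lower edge.

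**Figure D1:**
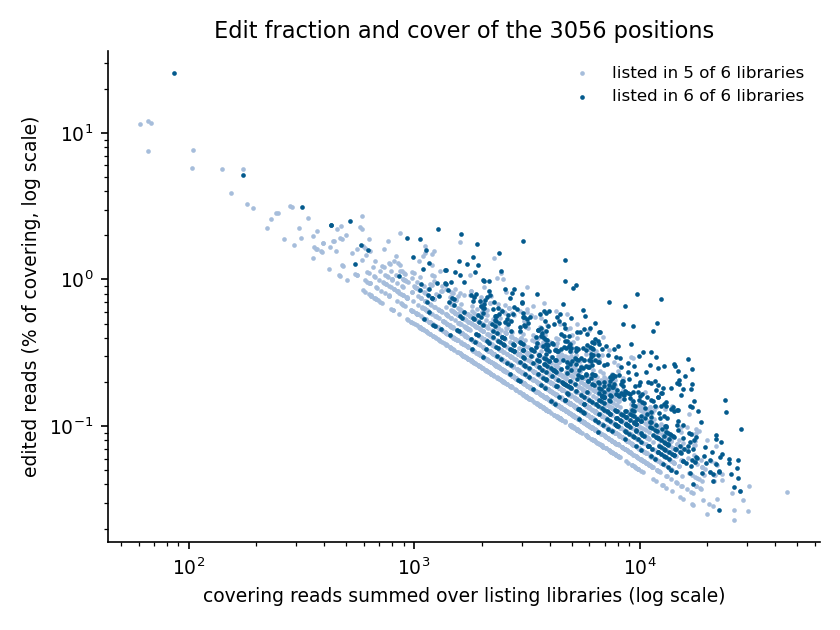
Edit fraction (percent of covering reads, log scale) of each of the 3056 recurrent enzyme sites against its covering reads summed over the libraries that list it (log scale), in light blue for sites listed in 5 of 6 libraries and dark blue for all 6. Most sites lie between 0.0597% and 0.978%, and only sites with fewer than 100 covering reads exceed 10%.

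The highest fraction, 25.6%, belonged to a cytidine at position 89766051 of chromosome 15 (plus strand), outside any gene on that strand. It rested on 22 edited of 86 covering reads (Wilson 95% interval 17.5% to 35.7%, for counting error only). It was listed with 3 of 20, 6 of 17 and 9 of 15 reads edited with the antibody and with 2 of 14, 1 of 7 and 1 of 13 reads edited with enzyme alone. That site also had the highest fraction in a single library, 60.0%, followed by a site on chromosome 3 at 23.1% and one in Atp6v0c-ps2 at 16.7%, so that no site came near the bound of 0.8, and 0 otherwise eligible positions lay at or above it. Just outside the listing thresholds, 8311 positions were listed in 4 of the 6 libraries and in no buffer-only library, and 3992 were listed in at least 5 libraries and in exactly 1 buffer-only library.

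By the rule each site is listed in at least 5 of the 6 libraries with enzyme. The RBFOX2-INSCRIBE libraries listed 2744, 2713 and 2701 of the sites and the enzyme-only libraries 2624, 2685 and 2506. Pooled over the sites that each library listed, the edit fraction was 0.187%, 0.155% and 0.220% with the antibody and 0.165%, 0.157% and 0.178% with enzyme alone, so the groups overlapped. Across the 693 sites in all 6 libraries, the median spread between replicates (SD over mean) was 0.45 in RBFOX2-INSCRIBE and 0.43 in enzyme-only.

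Depth differed between libraries. They held 421269 to 784815 edited reads over all listed positions, and their covering reads at 4108 positions listed in all 9 gave relative depths between 0.944 and 1.25 with the antibody, between 0.860 and 1.00 with enzyme alone and between 0.830 and 1.21 with buffer. The lists give positions with at least 1 edited read, so the cover of a site in a buffer-only library is unknown. It can be read from a listed neighbour within 20 nt, which all 3 buffer-only libraries had for 1721 sites (56.3%). There the mean cover of the neighbours was 1.00 times (median) the cover of the site itself with enzyme. That the buffer-only libraries list none of the sites is the rule itself and is not a result.

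The base before the C was not used to choose the sites, and it was A or U in 87.1% of them (Wilson 95% interval 85.9% to 88.3%, n = 3053 with bases in the genome used here). A preceded the C in 55.7% and U in 31.4%. On the other side, U followed in 47.6% and A in 30.9%. Of all positions listed in any library with enzyme, U followed in 35.0% and A in 32.5%, so only U was raised. The triplet ACU alone made up 26.8% of the sites, ACA 18.3% and UCU 16.9%. Among the 13532 positions that were as recurrent with enzyme but also listed in a buffer-only library, ACU made up 11.5%.

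The share with A or U before the C climbed with the number of libraries that listed a position. Among positions in no buffer-only library it was 58.8%, 64.0%, 70.7%, 78.2%, 85.4% and 92.9% for positions listed in 1, 2, 3, 4, 5 and 6 libraries with enzyme. It went the other way with buffer. Positions in no library with enzyme had A or U before the C in 48.6%, 42.2% and 35.5% when 1, 2 or 3 buffer-only libraries listed them, and positions in all 9 libraries had it in 55.9%. Along the series without buffer, neighbouring values lie outside one another's 95% intervals, and the recurrent enzyme sites form its end with the most A and U.

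**Figure D2:**
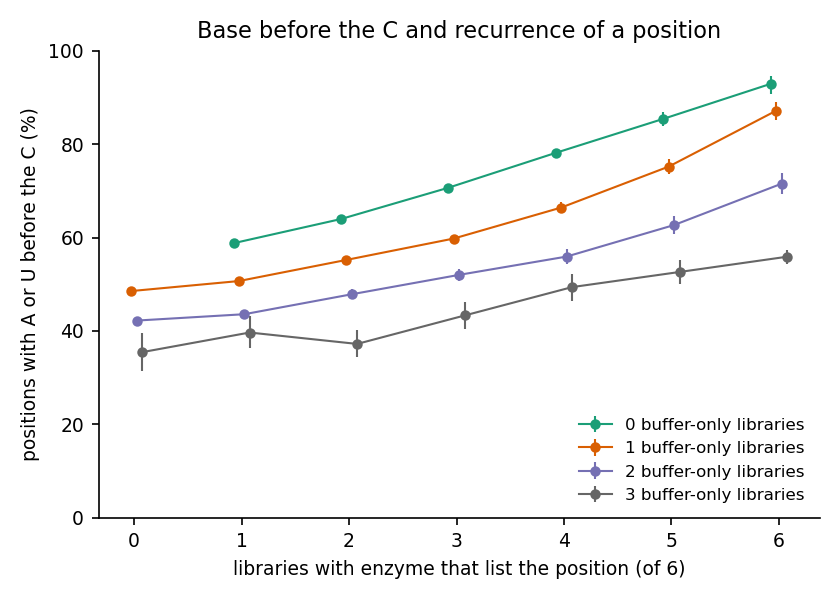
Share of positions with A or U before the C (percent) against the number of libraries with enzyme that list the position, with 1 line for each number of buffer-only libraries; bars are Wilson 95% intervals. The line for no buffer-only library rises from 58.8% to 92.9% and lies above the other lines at each number of libraries.

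The preference was strongest at the bases next to the C. At the second base upstream 53.3% of the sites had A or U, and at the third 58.6%, against 87.1% directly before and 78.4% directly after the C. Of all positions listed in any library with enzyme, 58.8% had A or U directly before and 67.4% directly after. The mean A and U content of the 41 nt around the C was 53.1%, against 49.5% around the positions also listed in buffer-only libraries and 45.9% around 17351 positions listed in at least 2 buffer-only libraries and none with enzyme. In predicted structures of 61-nt windows, the C of a recurrent enzyme site was unpaired with a median probability of 73.1%, against 74.4% and 55.4% for these other classes.

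**Figure D3:**
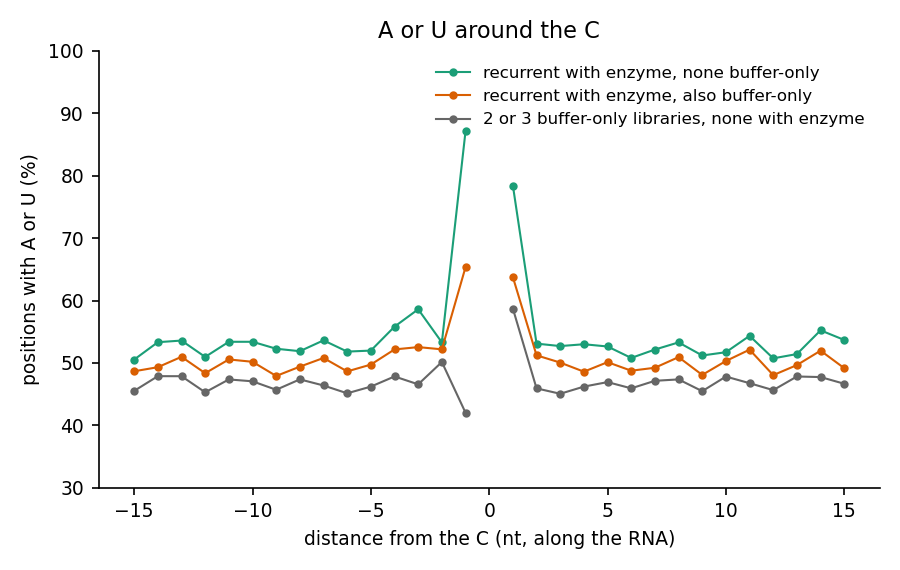
Share of positions with A or U (percent; the axis starts at 30%) at each distance from the C along the RNA, for recurrent enzyme sites (green), positions as recurrent with enzyme but also in a buffer-only library (orange) and positions in 2 or 3 buffer-only libraries and none with enzyme (grey). The green line stands at 87.1% directly before and 78.4% directly after the C and is highest there of all plotted distances.

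Sites with higher fractions followed the preference more closely. Below an edit fraction of 0.1%, 62.0% of 582 sites had A or U before the C. The share was 85.1% of 892 sites from 0.1% to 0.2%, 97.1% of 1051 from 0.2% to 0.5%, 97.9% of 385 from 0.5% to 1% and 99.3% of 143 from 1% upward. The bins were set after seeing the data. ACU rose along the same bins from 8.93% to 52.4%, while the median cover fell from 10934 to 658 reads. Positions also listed in buffer-only libraries had 54.6% below 0.1% and 93.1% from 0.2% to 0.5%, and came down to 57.7% from 1% upward.

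UGCAUG lay within 50 nt of the C, on the transcribed strand, at 286 sites (9.37% of 3053). The rule counts listings with and without the antibody alike, so this share also reflects the libraries with the antibody. The RBFOX2-INSCRIBE libraries listed 92.7%, 95.8% and 95.8% of the 286, and the enzyme-only libraries 82.5%, 87.4% and 74.5%. For the 2767 sites without the motif these shares were 89.5%, 88.0% and 87.6% against 86.3%, 87.9% and 82.8%. Of all positions listed in any library with enzyme 3.87% had the motif within 50 nt, of those also in buffer-only libraries 3.54%, and of those recurrent in buffer-only libraries 2.56%. Since most sites lie in 3′ UTRs, the same region was compared too. Within 3′ UTRs, 12.1% of the sites had the motif nearby and 4.36% of all listed positions did. The share was higher at the better edited sites: 23.9% of those edited at 0.5% or more had it, and 26.6% of those at 1% or more. These edit fractions pool libraries with and without the antibody. Of the positions also in buffer-only libraries, 8.04% of those at 0.5% or more and 4.32% of those at 1% or more had it. At 24 sites (0.786%) UGCAUG started directly after the C, as in the Arhgap21, Ppp3cb and Sgtb windows above, against 0.0901% of positions listed with enzyme.

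At 10 of the 11 printed sites the fractions with and without the antibody overlapped, and none of the 11 passed the edgeR test of the difference, which called 0.321% of 7474 positions higher and 0.147% lower with the antibody. In Yod1, which encodes a deubiquitinase, 2 of 41, 1 of 29 and 3 of 29 reads were edited with the antibody and 1 of 31, 1 of 25 and 1 of 20 with enzyme alone. The fractions were 6.22% ± 3.64 and 4.08% ± 0.889 (SD, n = 3 each). The groups overlapped.

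Msi2, for the RNA-binding protein Musashi-2, had 1.32%, 3.64% and 2.86% with the antibody and 2.44%, 7.02% and 1.79% with enzyme alone. Xpr1, a phosphate exporter, had 0.935%, 1.28% and 7.35% against 1.10%, 3.37% and 2.30%. In both the highest library stood well above the other libraries of its own group, and the groups overlapped. Luzp2 had 1.46%, 2.02% and 1.19% with the antibody and 1.42%, 2.09% and 3.07% without, and the non-coding 2900097C17Rik 2.11%, 1.59% and 2.94% against 2.90%, 2.86% and 1.59%. Neither pair of groups separated, and in both the mean was higher with enzyme alone.

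Arhgap21, which encodes a GTPase-activating protein, had 2.11%, 1.59% and 5.56% with the antibody and 1.43%, 1.49% and 1.67% without. Ppp3cb, a catalytic subunit of the calcium-activated phosphatase calcineurin, had 4.96%, 3.27% and 0.498% against 0.476%, 1.34% and 2.15%. Sgtb, a co-chaperone, had 1.65%, 4.12% and 2.19% against 0.571%, 1.94% and 0.870%. All of these have UGCAUG directly after the edited C, their mean fractions with the antibody were 3.08%, 2.91% and 2.65% against 1.53%, 1.32% and 1.13%, and the groups overlapped at each.

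In Pja2, which encodes a ubiquitin ligase, 9 of 619, 9 of 553 and 21 of 468 reads were edited with the antibody (1.45%, 1.63% and 4.49%) and 5 of 475, 6 of 517 and 6 of 412 without (1.05%, 1.16% and 1.46%). Bnip3, a mitochondrial protein of mitophagy, had 2.97%, 0.971% and 3.49% against 1.06%, 0.847% and 1.30%. At both of these the groups overlapped.

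**Figure D4:**
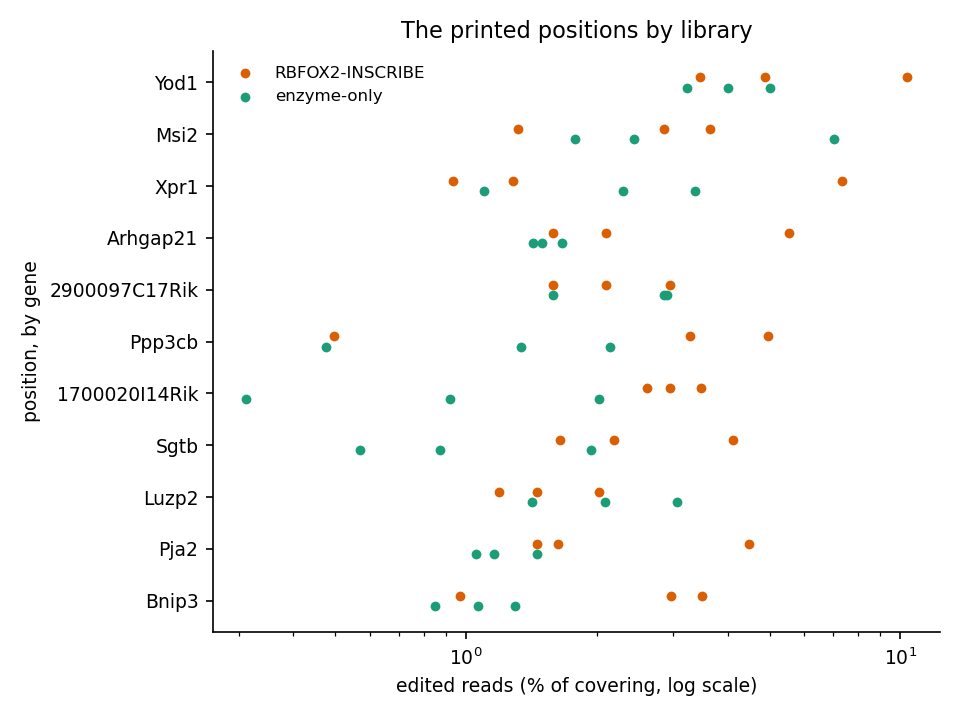
Edit fraction (percent of covering reads, log scale) of the 11 printed sites in each RBFOX2-INSCRIBE library (orange) and each enzyme-only library (green). At 10 of the 11 sites the points of the groups overlap, and at 1700020I14Rik every orange point lies to the right of every green one.

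The sites with the most edited reads were deeply covered, and most lay in 3′ UTRs. At position 108497932 of chromosome 10 (minus strand), in the 3′ UTR of Syt1, the calcium sensor of synaptic vesicle release, 92 of 12467 reads were edited. The fractions were 0.385%, 0.565% and 1.07% with the antibody and 1.04%, 0.676% and 0.821% without, which overlap. At position 113747653 of chromosome 6 (minus strand), in the 3′ UTR of Atp2b2, a plasma membrane calcium pump, 63 of 4657 reads were edited, with 1.35%, 1.69% and 2.30% against 1.08%, 0.876% and 0.839%. Here the groups did not overlap, and the difference did not pass the test over all positions (log2 0.89, SE 0.41, edgeR adjusted p = 0.673). A site at position 36376439 of chromosome 12 (minus strand), in no gene of its strand, had 61 of 12016 reads edited, with 0.564%, 0.406% and 1.24% against 0.481%, 0.147% and 0.231%.

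Whether the antibody adds to editing at these cytidines was tested on the positions listed in all 6 libraries with enzyme, where each library gives both edited and covering reads. Edited reads were compared between RBFOX2-INSCRIBE and enzyme-only with the covering reads as offset, over 7474 positions, of which 693 were recurrent enzyme sites. Every library holds at least 1 edited read at such a position, so a fraction of 0 cannot enter. Of the 693, 4 had a higher edit fraction with the antibody (edgeR adjusted p under 0.05) and 0 a lower one. Of all positions tested 0.321% were called higher and 0.147% lower. At an unadjusted p under 0.05 edgeR gave 47 of the 693 sites (6.78%), 41 of them higher and 6 lower, against 480 of all 7474 positions (6.42%), 230 higher and 250 lower. With both directions together, the share was near that of all positions. By direction, 5.92% of the sites were higher and 0.866% lower, against 3.08% and 3.34% of all positions.

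Chn1, which encodes chimaerin, a Rac GTPase-activating protein of neurons, had the clearest difference. At position 73612665 of chromosome 2 (minus strand), in its 3′ UTR, 18 of 2125, 14 of 2340 and 14 of 1668 reads were edited with the antibody and 2 of 1798, 1 of 1981 and 2 of 1530 without. The fractions of 0.762% ± 0.141 and 0.0975% ± 0.0419 (SD, n = 3 each) did not overlap, and the log2 difference was 2.91 (SE 0.56, edgeR adjusted p = 0.000173). It was called without each of the 6 libraries in turn, with adjusted p up to 0.0156, and not by DESeq2 (adjusted p = 0.182) or by a quasi-binomial model (adjusted p = 0.0821).

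Of the other called sites, those in the long non-coding RNA 1700020I14Rik (Oip5os1 in the deposited cluster labels, also known as Cyrano) and in Shank1 are described here. In 1700020I14Rik, position 119602515 of chromosome 2 (plus strand) had 2.93%, 2.94% and 3.04% against 0.687%, 0.299% and 0.333%, a log2 difference of 2.67 (SE 0.66, edgeR adjusted p = 0.0191). The site of the same RNA that is printed above had 3.47%, 2.61% and 2.95% against 0.917%, 0.312% and 2.02% and was not called (edgeR adjusted p = 0.395). In Shank1, a scaffold of the postsynaptic density, position 44357880 of chromosome 7 (plus strand, 3′ UTR) had 0.564%, 0.403% and 0.917% against 0.0694%, 0.0612% and 0.171%, a log2 difference of 2.56 (SE 0.67, edgeR adjusted p = 0.0315). At both of these called sites the enzyme-only libraries held 1 or 2 edited reads each, and the groups did not overlap. Both calls were lost on leaving out any library other than RBFOX2-INSCRIBE replicate 2. The edgeR adjusted p then rose to at most 0.155 and 0.338. DESeq2 and the quasi-binomial model called none of the 693 sites at an adjusted p under 0.05. At an unadjusted p under 0.05 they gave 12 (1.73%) and 46 (6.64%) of them, both directions together. Of all 7474 positions they gave 2.11% and 7.85%. Higher with the antibody were 1.73% and 5.77% of the sites, against 1.08% and 3.32% of all positions. Lower were 0% and 0.866% of the sites, against 1.03% and 4.54% of all positions.

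No site was called lower. The smallest p in that direction belonged to Scd2, a fatty acid desaturase of brain, at position 44303319 of chromosome 19 (plus strand), with 0.0636%, 0.138% and 0.0884% with the antibody and 0.241%, 0.320% and 0.368% without (log2 -1.58, SE 0.66, edgeR adjusted p = 0.704). The non-coding C230004F18Rik (log2 -1.56) and Actb, a cytoskeletal actin (log2 -1.64), were also among the smallest. None of these passed the test, and each rests on 12 to 15 edited reads.

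Sites near UGCAUG leaned further towards the antibody. Of the 82 tested sites with the motif within 50 nt, 64 had a log2 difference above 0 and the median was 0.49. Of the 611 without, 322 were above 0 and the median was 0.07. At the other tested positions the medians were 0.38 with and -0.10 without the motif. Over all 693 sites the median was 0.11, and over all 7474 positions -0.07. When the offset also carried each library's edit fraction, the medians were 0.22 and 0.04, a shift of about 0.11 throughout. Of the called sites, 1 had the motif within 50 nt and 3 did not.

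The same split was visible in the pooled fractions of all sites. The 286 sites with UGCAUG within 50 nt had 0.416%, 0.319% and 0.430% edited reads with the antibody and 0.267%, 0.238% and 0.300% without, and the groups did not overlap. The 2767 sites without it had 0.172%, 0.144% and 0.205% against 0.159%, 0.152% and 0.171%, which overlap. These pooled values are given as a description: a library's fraction counts the sites that it lists.

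**Figure D5:**
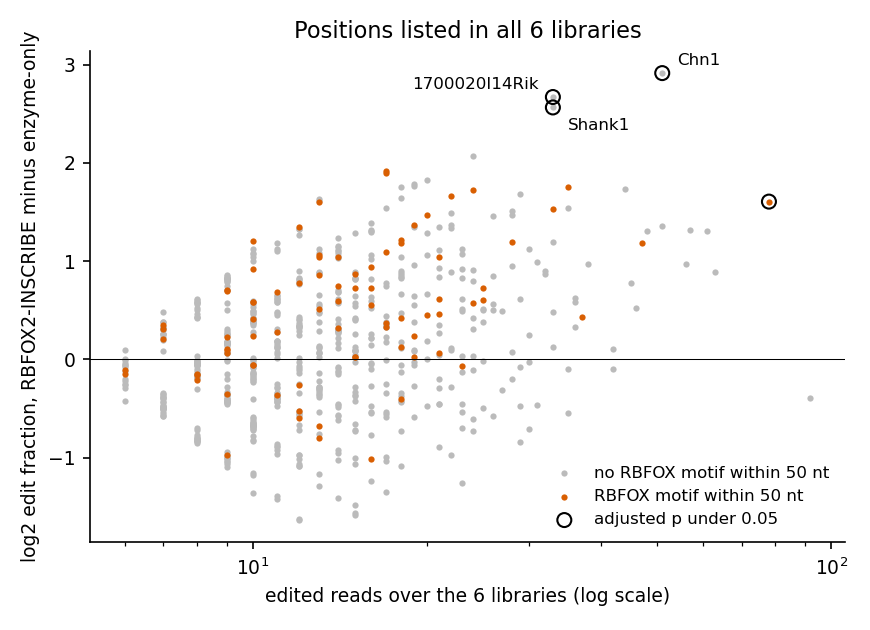
Log2 difference in edit fraction, RBFOX2-INSCRIBE minus enzyme-only, against edited reads over the 6 libraries (log scale) for the 693 recurrent enzyme sites listed in all 6, in orange where the RBFOX motif lies within 50 nt; circles mark adjusted p under 0.05. The labelled circles are Chn1, 1700020I14Rik and Shank1, and 64 of the 82 orange points lie above 0.

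Most sites lay in the untranslated ends of mature mRNAs. Of the 3056, 1975 (64.6%) were in 3′ UTRs, 823 (26.9%) in coding sequence, 4.09% in exons of non-coding RNAs, 1.73% in 5′ UTRs, 0.622% in introns and 2.00% outside genes on their strand. Positions listed in any library with enzyme were in 3′ UTRs in 22.8%, in coding sequence in 31.4% and in introns in 36.2%. Positions equally recurrent but also in buffer-only libraries were in 3′ UTRs in 38.1%, and those recurrent in buffer-only libraries alone were mostly coding (54.9%). For 791 coding sites that lie in 1 gene, the codon was read from the longest annotated coding transcript that holds the site. The C was the third base of its codon in 50.3% of them. A change to U would be synonymous in 55.5%, missense in 40.2% and a stop in 34 (4.30%). Among positions also in buffer-only libraries the third base held the C in 45.4% and the change would be synonymous in 52.1%. Codons were examined after seeing the data.

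Another recurrent enzyme site lay within 20 nt of 672 sites and within 50 nt of 1153, and such neighbours can share reads. Around a site, the median number of other cytidines within 20 nt was 10. The median number listed in at least 1 library with enzyme was 7, and in 5 or more 0. The study's confident edit clusters are regions where editing recurred in its replicates, and the paper also subtracts buffer-only clusters. The 5177 clusters for RBFOX2-INSCRIBE held 106 sites, the 4542 for enzyme-only 34 and the 2092 for buffer-only 6. The last count is held down by the rule, which takes no position listed in a buffer-only library. Of the 143 sites edited at 1% or more, 59, 26 and 5 lay in these clusters.

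Genes were assigned in 2 ways. The labels of the deposited edit clusters gave 1 gene to 500 sites and several to 36, and 2520 sites lay in no labelled cluster. By these labels Ppp3ca, which encodes another catalytic subunit of calcineurin, held 15 sites, Oip5os1 13 and Prkcb, a protein kinase C, 11. By GENCODE on the strand, a step added after seeing how few the labels named, 2880 sites fell in 721 genes. These are 4.75% of the 15176 genes with any listed position in brain and 71.2% of the 1013 with a position listed in at least 5 libraries with enzyme. Of the 721 genes, 338 held 1 site and 21 held 20 or more.

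The genes with the most sites encode abundant proteins of neurons and astrocytes. Slc1a2, the main glutamate transporter of astrocytes, held 83 sites, 70 of them in its 3′ UTR and 74 with A or U before the C, at edit fractions of 0.0329% to 0.616%. Camk2a, a calcium-dependent kinase of excitatory neurons, held 38, Syt1 36, and Glul, the glutamine synthetase of astrocytes, and Atp2b2 33 each. Map1b, a microtubule-associated protein, also held 33. Pooled over its sites, Camk2a had 0.120%, 0.131% and 0.134% edited with the antibody and 0.0948%, 0.0818% and 0.0798% without, and the groups did not overlap. Slc1a2 had 0.131%, 0.118% and 0.145% against 0.145%, 0.131% and 0.115%, and Glul 0.194%, 0.155% and 0.187% against 0.173%, 0.155% and 0.178%, which overlap.

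Lists of neuronal genes were counted beside all genes, of which 721 of the 1013 with a position listed in at least 5 libraries with enzyme (71.2%) held a recurrent enzyme site. The same share was 76.5% for presynaptic genes (13 of 17), 78.6% for postsynaptic genes (11 of 14), 75% for ion channels (3 of 4) and 90.9% for calcium signalling (10 of 11), so that the first 3 lie near that of all genes. Of 20 presynaptic genes, 13 held 141 sites, among them Syt1, Snap25 (14), which encodes a membrane fusion protein of synaptic vesicles, and Cplx2 (12), a regulator of their fusion. Of 20 postsynaptic genes, 11 held 101 sites, led in edited reads by Camk2a, Shank1 (23), Camk2b (10) and the scaffold gene Dlg4 (9). Of 17 genes for voltage-gated and other ion channels, 3 held 6 sites: Scn8a, Kcnq3 and Scn2a, with a median fraction of 0.384%. Of 14 calcium signalling genes, 10 held 172 sites, among them Ppp3ca (28), Atp2b2 and the calcium pump of the endoplasmic reticulum Atp2a2 (30). Over all 721 genes the median fraction of a site was 0.207%, against 0.143% in the presynaptic, 0.152% in the postsynaptic and 0.188% in the calcium signalling list. The rule takes low fractions only where cover is deep, so such medians also depend on cover, which was not compared between lists. The shares of genes with a site have the same limit, as a gene with more listed positions has more chances to hold a site.

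In 6 further lists of metabolic, structural and transport genes the median fraction of a site lay below the 0.207% of all genes. It did so in the presynaptic, postsynaptic and calcium signalling lists too. The limit from cover applies to all of these medians and to the shares of genes given at the end of this paragraph. Of 16 genes of glycolysis and energy supply 14 held 79 sites with a median of 0.0876%, among them Atp1b1, the creatine kinase Ckb and Aldoa. Of 10 translation and chaperone genes 8 held 35 sites with a median of 0.0941%, with Hsp90ab1 (10 sites) and Eef1a2 (7) in front. Of 11 mitochondrial transcripts with listed positions, all had a position in at least 5 libraries with enzyme, and 4 held 8 sites at a median of 0.0506%: mt-Nd4, mt-Co1, mt-Nd2 and the ribosomal RNA mt-Rnr1. Of 19 cytoskeletal genes 16 held 160 sites at 0.131%, including Map1b, the kinesin Kif5a (24), Map2 (17) and Actb (14). The 14-3-3 adaptor genes held 53 sites in 5 of 6 at a median of 0.158%, and Ywhag alone 26. Of 13 genes of membrane and vesicle traffic, 11 held 109 sites at 0.148%, among them App, Serinc1, Sparcl1 and Cpe. Among genes with a position listed in at least 5 libraries with enzyme, 71.2% of all held a site. That share was 100% for glycolysis (14 of 14), 14-3-3 (5 of 5) and traffic genes (11 of 11). It was 94.1% for cytoskeletal genes (16 of 17), 88.9% for translation and chaperone genes (8 of 9) and 36.4% for mitochondrial transcripts.

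Of 25 transcripts known as APOBEC1 targets in mouse tissues with a listed position in brain, 6 had a position listed in at least 5 libraries with enzyme. Of these, 5 (83.3%) held 59 recurrent enzyme sites. Among all genes with a position listed in at least 5 such libraries the share was 71.2%, so these few genes lie near it. App, the amyloid precursor gene, held 30 at 0.0423% to 0.797%. Serinc1 held 23 at 0.0800% to 2.16%, Tmem30a 4 at 0.314% to 0.699% and Atf2 1 at 0.903%. Nuclear long non-coding RNAs held 50 sites in 6 of 11 genes, and 6 had a position listed in at least 5 libraries with enzyme, which is 6 of 6 against 71.2% of all genes. Meg3 held 28, Malat1 7, Xist 5 and Rian 3. Of the 3 RBFOX genes, 2 had a position listed in at least 5 libraries with enzyme, and these 2 held sites. Rbfox1 held 3, of which 1 is coding at 0.197%. The highest of the 3 is intronic, at 5.77% with 6 edited of 104 reads, and has neither A nor U before the C. Rbfox3 held 1 at 0.286%.

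Markers of neurons, astrocytes and oligodendrocytes held sites. All 5 neuronal markers with listed positions held sites, 70 in all. Of 4 excitatory markers 2 did, Camk2a and Slc17a7 (10), the vesicular glutamate transporter of cortex. Of 6 inhibitory markers Gad1 held 3 sites, and of 7 striatal markers Penk held 1. Of 8 astrocyte markers 4 held 89, of which Slc1a2 gave 83. Slc1a3 held 3, Gja1 2 and Slc4a4 1. Of 7 oligodendrocyte markers 4 held 17, among them Mbp with 4, Cnp with 1 and Mobp with 1. Among genes with a position listed in at least 5 libraries with enzyme, 71.2% of all held a site. Of such markers, 5 of 5 neuronal, 2 of 2 excitatory, 1 of 2 inhibitory and 1 of 1 striatal did. So did 4 of 4 astrocyte and 4 of 4 oligodendrocyte markers. The counts over all markers therefore do not rank the cell types. Markers of oligodendrocyte precursors, microglia, endothelial cells and choroid plexus held 0. None of these genes had a position listed in 5 libraries with enzyme, so by the rule they could not hold a site. The cover of their unlisted cytidines is unknown, and whether low cover or little editing lies behind this was not tested.

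A further comparison asked whether the genes that hold recurrent enzyme sites gain edits elsewhere with the antibody. Edited reads at other positions (score above 0.5 and edit fraction below 0.8) were summed per gene and compared between RBFOX2-INSCRIBE and enzyme-only. Of 6303 genes tested, 553 held recurrent enzyme sites, and of these 15 were higher with the antibody (edgeR adjusted p under 0.05) and 0 lower. Over all genes tested 0.92% were higher and 0.0159% lower. The median log2 difference was 0.12 in the 553 genes and -0.01 over all, and 372 of the 553 (67.3%) lay above 0 against 3116 of all 6303 (49.4%). At an unadjusted p under 0.05 edgeR gave 118 of the 553 (21.3%) and 762 of all (12.1%). These sums rise with the level of a transcript as well as with its editing. Fewer cells of a type and less RNA per cell cannot be told apart. Genes that hold recurrent enzyme sites need edited reads in at least 5 libraries, so they can be more deeply covered than genes as a whole. Depth was not matched between the 553 genes and all genes.

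Meg3, a maternally expressed nuclear long non-coding RNA, had 214, 118 and 149 edited reads with the antibody and 18, 28 and 35 without, a log2 difference of 2.40 (SE 0.21, edgeR adjusted p = 2.76e-13). With buffer it had 31, 11 and 19. Trim37, for a ubiquitin ligase, had 149, 93 and 129 against 22, 30 and 11 (log2 2.39, SE 0.23, edgeR adjusted p = 3.7e-12), and 17, 13 and 6 with buffer. The groups with and without antibody lay far apart, and the counts with enzyme alone overlapped those with buffer.

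1700020I14Rik had 78, 38 and 79 edited reads outside its recurrent sites with the antibody and 11, 22 and 9 without (log2 2.05, SE 0.29, edgeR adjusted p = 2.54e-06). Chn1 had 151, 101 and 103 against 53, 40 and 35 (log2 1.30, SE 0.19, edgeR adjusted p = 5.74e-06). Both also held a site that was called on its own, as did Shank1 (log2 0.79). The remaining called genes were Zbtb18, a transcriptional repressor (log2 2.01), Calm2 (1.43), the kinase gene Map2k1 (1.33), Ywhag (1.30), Pde10a, a phosphodiesterase of the striatum (0.85), the diacylglycerol kinase Dgkb (0.81), the kinesin light chain Klc1 (0.77), the vesicular transporter Slc6a17 (0.69), Ppp3ca (0.69) and Rbfox1 (0.32). Without enzyme-only replicate 1 the count of called genes was 9.

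In the other direction, Gnl3l, for a nucleolar GTPase, had 19, 9 and 9 edited reads with the antibody and 27, 30 and 18 without (log2 -1.17, SE 0.34, edgeR adjusted p = 0.0687). Tmem106b (log2 -1.05), a lysosomal membrane protein, Slc48a1 (log2 -1.05), a haem transporter, and Sept7 (log2 -0.55), a septin, came next and did not pass. Gnl3l passed without RBFOX2-INSCRIBE replicate 1 (edgeR adjusted p = 0.0289) and without enzyme-only replicate 3 (0.0497), and Tmem106b without the latter (0.0469). Slc48a1 passed under 1 alternative setting.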

How the data were processed

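C-to-U editing was analysed in 9 brain libraries, 3 per group as the titles give them. According to the labels and methods, the authors trimmed reads with cutadapt, removed repeats, aligned with STAR (2.4.0 and 2.5.2 in the submitters' processing notes) to mm10 and called sites with SAILOR and clusters with FLARE. The deposited site lists give counts of edited and covering reads, the edit fraction and a confidence score for positions with at least 1 edited read. For each cluster, the deposited lists hold a score, a signal (its read depth) and other quantities. No deposited value is normalised. 0 columns of per-sample values were left unused.

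The sites, gene lists and tests were chosen with earlier results of these data known. Of the listed positions, 3127795 have a base in the genome used here, and each of these is a C on its strand. Positions are 1-based. Regions and genes came from GENCODE mouse release M21, and sites in more than 1 gene were left out of gene counts. Pairing was predicted with ViennaRNA 2.7.2 in 61-nt windows. The tests used edgeR 4.0.16 (quasi-likelihood, Benjamini-Hochberg adjusted p under 0.05) in R 4.3.3: edited reads per position with the log of covering reads as offset over the 6 libraries with enzyme, and edited reads per gene with TMM factors and filterByExpr in 1 fit of the 9 libraries. DESeq2 1.42.0 and limma 3.58.1 (quasi-binomial model) served alternatives. The scripts were tested on simulated data. Intervals are Wilson 95% intervals for counting error only, as reads carry no molecular identifiers. The numbers of sequenced reads are not used here.

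Named sites are, with at most 1 per gene, the 12 with the highest edit fraction (listed in all 6 libraries, at least 100 covering reads), the 6 with the most edited reads, the 4 with the smallest p in each direction and the 3 nearest to the bound on the fraction. Named genes are the 6 with the most sites, the 4 with the smallest p in each direction of the gene test, and up to 4 of each list by edited reads. The other called genes, Map1b, Rbfox3 and the top genes by cluster label were named after their values were seen. A few of these sites and genes are not reported here.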

Additional observations from a re-analysis of the deposited data

How the results depend on the processing

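The set depends on the listing rule. Listing in all 6 libraries with enzyme left 693 sites, at least 4 of 6 gave 11367, and allowing 1 buffer-only library gave 7048. With the score filter of 0.5 on each listing 29 remained, 27 of them among the 3056, and without the bound on the fraction the number was 3056. Leaving out each of the 9 libraries in turn, with 1 listing fewer asked of the libraries with enzyme, gave 4010 (without buffer-only replicate 3) to 6285 sites (without enzyme-only replicate 3). The share with A or U before the C was 92.9% for all 6 libraries, 80.6% for at least 4, 82.4% with 1 buffer-only library allowed and 96.6% with the score filter, and 81.2% to 85.4% without single libraries.

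The count of 4 sites called higher with the antibody became 0 with DESeq2, 0 with a quasi-binomial model and 0 with the score filter, under which 4 of the sites could be tested. It was 1 to 3 without single libraries: 3 without RBFOX2-INSCRIBE replicate 2, 2 without its replicate 1, and 1 without its replicate 3 or any enzyme-only library. With positions listed in 5 of 6 added it was 4, of which 3 were the same sites, and Shank1 had an edgeR adjusted p of 0.0614. The other filters and the scaled offset kept the same 4 sites. Over all positions, 38 were higher and 6 lower with the scaled offset, against 24 and 11, and DESeq2 and the quasi-binomial model gave 4 and 3 higher and 0 lower.

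The 15 genes called higher became 36 (30 of them higher) when every listed position was counted, 12 of them shared, and 9 to 18 without single libraries, with 9 without enzyme-only replicate 1. DESeq2 called 19, of which 4 were shared, but its independent filtering left 5987 of 6303 genes without an adjusted p. Without that filtering, an alternative chosen after seeing the data, it called 10, all among the 15. The remaining alternatives gave 15 to 18. Over all genes, 58 were higher as described, 145 with every listed position, 25 with unfiltered DESeq2 and 24 to 63 without single libraries.

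The replicate numbers did not pair the libraries, since the correlations of same-numbered deviations were 0.0376, 0.00214 and 0.0277 over positions and 0.0179, 0.0570 and 0.0377 over genes. With the replicate block 4 sites (the same) and 16 genes were called, 15 of them shared, and over all positions 16 were higher in place of 24. Depth limits all of this: with 1 edited read in most listings, a site missing from a library can differ from a listed one by a single read, and fractions rest on few reads.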
